A study of Mus musculus with 20 samples.

Results

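The synaptic vesicle and release machinery was followed as 48 genes, chosen by name from the 25965 rows of a count table of mouse frontal cortex: vesicle proteins, SNAREs, active zone proteins and their regulators. Syt2, Vamp1 and Cplx1, which mark fast-spiking interneurons, were left out by the rule that chose the members. RNA-seq libraries from polyadenylated RNA came from 3 genotypes of C57BL/6 mice aged 5 months, all collected as frontal cortex. The first genotype was homozygous for the TDP-43 Q331K knock-in, a change of the protein encoded by Tardbp (8 libraries). TDP-43 is an RNA-binding protein of the nucleus. The second was heterozygous for the same allele (6 libraries) and the third was wild type (6 libraries). As a knock-in, the allele sits in the endogenous gene and is read from the gene's own promoter. The labels give each library as a separate sample of its genotype and say no more about animals, so what the p-values measure is spread between samples, which may be technical.

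Neurotransmitter leaves a nerve terminal when a vesicle filled with it fuses with the presynaptic membrane. The SNARE proteins of the vesicle (Vamp2) and of the plasma membrane (Stx1a, Snap25) pull the membranes together, synaptotagmins sense the calcium that triggers fusion, and active zone scaffolds such as RIM, Munc13, Bassoon and Piccolo hold vesicles close to calcium channels. Afterwards Nsf and its adaptors take the SNARE complexes apart, and dynamin and its partners retrieve the vesicle membrane. Most neurons of the frontal cortex are glutamatergic, and their vesicles are filled by the transporter encoded by Slc17a7. TDP-43 binds UG-rich stretches of RNA and is known for its role in splicing and in the level of many neuronal transcripts.

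Library totals were 69312426 to 105412832 counts in homozygotes, 61282647 to 111440766 in heterozygotes and 75168829 to 96821696 in wild type, and the 48 genes took 2.14% to 2.41% of the counts of a library. Levels are CPM, the count of a gene relative to the library total scaled with TMM factors. Tardbp lay between 234 and 264 CPM in homozygotes, 215 and 235 CPM in heterozygotes and 210.0 and 227 CPM in wild type; it rose by 0.17 log2 units in homozygotes (edgeR adjusted p = 0.00372), whose range lay wholly above that of wild type. A gene count does not show the point mutation itself. Markers of glutamatergic neurons were present in every library, with summed levels of 1244 to 1514 CPM in homozygotes, 1256 to 1395 CPM in heterozygotes and 1251 to 1442 CPM in wild type over 9 upper-layer genes. Tissue makeup was not even. Homozygous replicates 2, 5 and 8 had olfactory bulb marker scores (mean z of log2 CPM) of 1.13, 2.13 and 2.22, while the remaining libraries lay at 0.29 or below. Heterozygous replicate 1 had a striatal score of 2.93, and homozygous replicates 1, 2 and 4 had ependymal scores of 2.15, 1.35 and 1.30, as heterozygous replicate 2 had of 1.12. Of 8 neuroblast markers 2 were raised in homozygotes, with mean scores of 0.563 in homozygotes, -0.310 in heterozygotes and -0.441 in wild type, and of 9 ependymal markers 1 was raised. Of 12 parvalbumin interneuron markers, all were tested and 3 were lowered in homozygotes; their summed level was 1429 to 1583 CPM in homozygotes, 1548 to 1678 CPM in heterozygotes and 1569 to 1748 CPM in wild type.

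Homozygotes differed from wild type in 3 of the 48 genes: Syt13 and Rims3 fell and Syt9 rose (edgeR quasi-likelihood test, Benjamini-Hochberg adjusted p under 0.05 over all 16690 genes tested). Among all genes tested, 1.56% were called, 0.641% as higher and 0.923% as lower. All 48 genes passed the filter on low counts. The other 45 were not called, and their largest estimates belonged to genes of low level. Over the 48 genes the median log2 change was 0.00, with 24 estimates above 0 and 24 below, and the median over all genes tested was also 0.00. The median size of the change, without its sign, was 0.04 for the members and 0.06 for all genes tested; among genes that averaged 100 CPM or more it was 0.04 for both. At an unadjusted p under 0.05 there were 9 members, 2 higher and 7 lower, where the background was 16.1% (1343 genes higher and 1346 lower). At an average of 100 CPM or more, 0 members were higher and 6 lower. Of all 2212 genes at that level, 71 were higher and 314 lower. Most members were measured closely enough to bound their change: the 95% interval lay within 0.2 of 0 on the log2 scale for 38 of the 48 genes, and for 28 of the 30 that averaged 100 CPM or more. In bulk tissue, fewer cells of a type and less RNA per cell cannot be told apart.

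**Figure D1:**
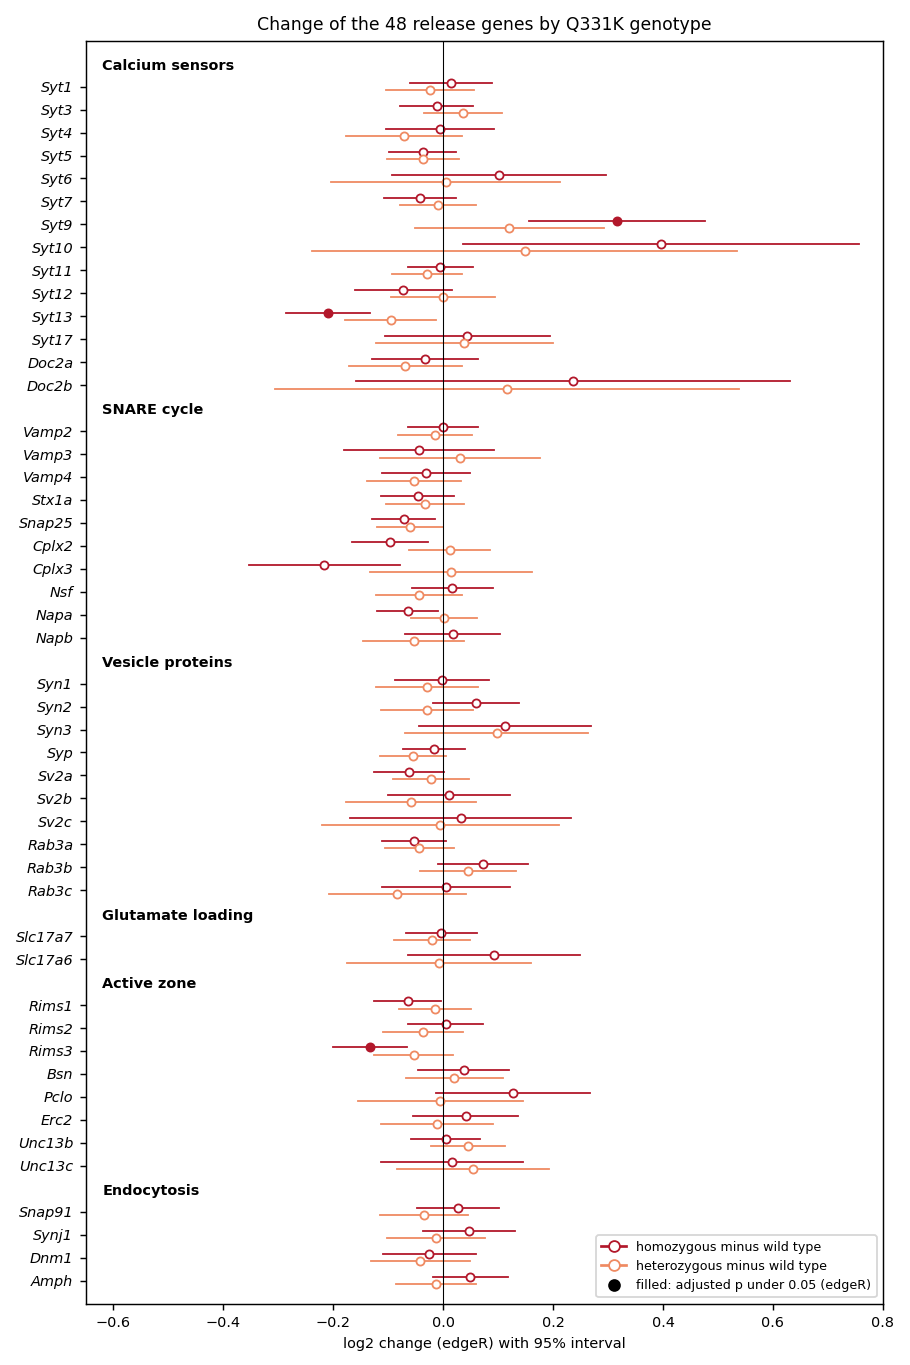
Log2 change of each of the 48 genes by role (horizontal axis, edgeR estimate with its 95% interval), for homozygotes minus wild type (red) and heterozygotes minus wild type (orange); filled points passed an adjusted p under 0.05. The filled points are Syt9 at 0.32, Syt13 at -0.21 and Rims3 at -0.13, all in homozygotes, and most other intervals cross 0.

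Levels between genes were compared as CPM per kb of exon, in all genotypes. Snap25, the plasma membrane SNARE, was the highest of the 48 at 541 ± 17.6 in homozygotes, 546 ± 19.2 in heterozygotes and 569 ± 16.5 in wild type (SD). Vamp2, the vesicle SNARE, followed with 298 ± 13.8 in homozygotes, 295 ± 7.50 in heterozygotes and 298 ± 7.24 in wild type CPM per kb. These levels are well apart from each other. Next came a run of genes whose wild-type means lay close together: Cplx2 at 285 ± 16.2, Syp at 274 ± 7.63, Slc17a7 at 262 ± 4.85, Dnm1 at 262 ± 8.93, Rab3a at 248 ± 3.06, Syn1 at 246 ± 10.8 and Syt1 at 238 ± 7.07 CPM per kb. Neighbours in that run differed by less than the sum of their SDs, except Dnm1 and Rab3a. At the low end stood Syn3 at 1.21 ± 0.0773, Syt10 at 1.20 ± 0.205 and Sv2c at 1.01 ± 0.0929 CPM per kb in wild type, again closer together than their spread. In all, 34 of the 48 genes reached 10 CPM per kb.

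Among the 14 calcium sensors, Syt13 fell and Syt9 rose in homozygotes and 12 did not pass the test. Syt13 encodes an atypical synaptotagmin that lacks the calcium-binding residues of Syt1, and lies on chromosome 2 from 92915098 to 92956058 on the plus strand (GRCm38). Its levels in the lowest, median and highest library were 192, 214 and 221 CPM in homozygotes, 221, 225 and 242 CPM in heterozygotes, and 224, 241 and 273 CPM in wild type. Every homozygous library lay below every wild-type library, and the heterozygous libraries overlapped both groups, with 2 of 6 below the wild-type range. Syt13 was the only member whose homozygous and wild-type ranges did not overlap; among all genes tested, 0.515% lay wholly lower and 0.264% wholly higher. Syt13 fell by 0.21 log2 units (SE 0.037, edgeR adjusted p = 0.00484). Without the 3 libraries of high olfactory bulb score the change was -0.21 (edgeR adjusted p = 0.0325), and with 3 surrogate variables, which ended the call, it was -0.18 (edgeR adjusted p = 0.187).

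Syt9 encodes a calcium-binding synaptotagmin that in mouse neurons can act as a fast release sensor, as Syt1 does. The gene spans chromosome 7 from 107370728 to 107548656 on the plus strand. Its lowest, median and highest levels were 7.52, 9.39 and 10.9 CPM in homozygotes, 7.57, 8.02 and 9.07 CPM in heterozygotes, and 6.06, 7.92 and 8.17 CPM in wild type. In homozygotes 7 of 8 libraries exceeded the highest wild-type library, and the groups overlapped through homozygous replicate 7. Syt9 rose by 0.32 log2 units (SE 0.078, edgeR adjusted p = 0.0379). Its highest levels, 10.9 and 10.4 CPM, were in homozygous replicates 8 and 5, which also had the highest olfactory bulb scores. Over the 12 olfactory bulb markers, of which 10 were tested, 0 were called and none was at 0 in every library; their summed level was 196 to 317 CPM in homozygotes, 187 to 216 CPM in heterozygotes and 191 to 221 CPM in wild type. Without the 3 homozygous libraries of high olfactory bulb score the Syt9 change was 0.24 (edgeR adjusted p = 0.19). These libraries include the highest Syt9 levels, so the change had to fall whatever the reason. With the ependymal, olfactory bulb and meningeal scores as covariates the Syt9 change was 0.18 (edgeR adjusted p = 0.342). The lowest Syt9 estimate, with 3 surrogate variables, was 0.11 (edgeR adjusted p = 0.759), and the gene was called in 18 of 32 alternatives. The call also ended in 8 of 20 fits that left out 1 library, namely wild-type replicates 1, 3, 5 and 6 and homozygous replicates 1, 3, 5 and 8.

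**Figure D2:**
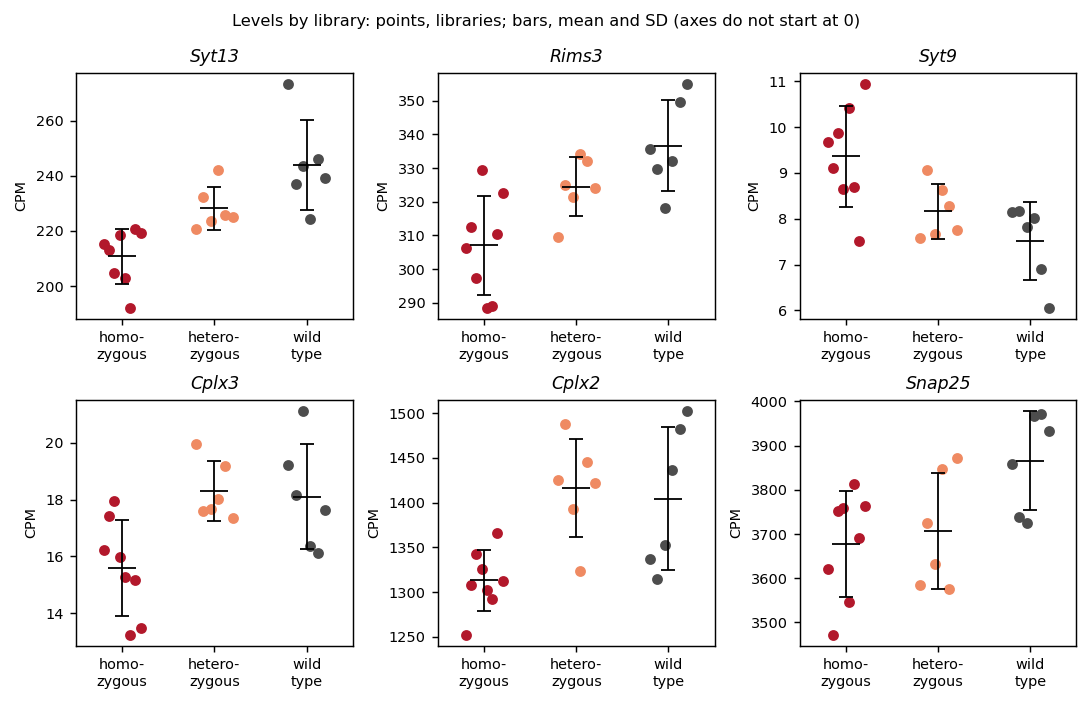
CPM of 6 genes in each library (points) with the mean and SD of each genotype (bars); the vertical axes do not start at 0. The homozygous libraries of Syt13 all lie below those of wild type, whereas for Rims3, Syt9, Cplx3, Cplx2 and Snap25 the groups overlap.

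Doc2b and Syt10 varied most between libraries of the same genotype. Doc2b encodes a high-affinity calcium sensor for spontaneous and asynchronous release, and Syt10 is known in mouse for calcium-triggered exocytosis of IGF-1 from olfactory bulb neurons. Their within-genotype SDs of log2 CPM were 0.35 and 0.34, and they were the 2 members over 0.3, a spread that 15.9% of all genes tested exceeded. The lowest, median and highest levels of Doc2b were 8.94, 11.3 and 17.2 CPM in homozygotes, 9.35, 10.6 and 15.4 CPM in heterozygotes, and 7.81, 10.4 and 13.8 CPM in wild type. Those of Syt10 were 1.91, 2.54 and 4.31 CPM in homozygotes, 1.92, 2.28 and 3.29 CPM in heterozygotes, and 1.77, 2.17 and 2.72 CPM in wild type. The genotypes overlapped for both genes, and the top of each range came from homozygotes. Doc2b stood at 17.2, 16.2 and 16.4 CPM in homozygous replicates 2, 5 and 8, above every other library, and Syt10 was highest in replicates 5 and 8 at 4.31 and 4.14 CPM.

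Those are the libraries with the high olfactory bulb scores, as the plot of levels against that score shows. For Syt10 the match was partial, with 2.55 CPM in homozygous replicate 2. Homozygous replicate 1 and heterozygous replicate 1, at scores of 0.15 and -0.41, had 3.38 and 3.29 CPM. The homozygous estimate for Syt10 was 0.40 (95% interval 0.04 to 0.76, edgeR adjusted p = 0.261) and 0.16 without the 3 libraries. For Doc2b it was 0.24 (95% interval -0.16 to 0.63, edgeR adjusted p = 0.581) and -0.08 without them. Neither gene was called in any fit. Whether olfactory bulb tissue raised the levels of Doc2b or Syt10 was not tested. Doc2b also shares 241 exon bases with Gm12339 on the opposite strand, and whether the counting used strand is not known here. Over 100 exon bases on the opposite strand are also shared by Syt12 (950), Syp (875), Syt4 (566), Syt6 (505), Pclo (496 and 429), Syt7 (384), Rab3b (317) and Erc2 (106), beside Doc2a and Syn3 as given with their values.

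**Figure D3:**
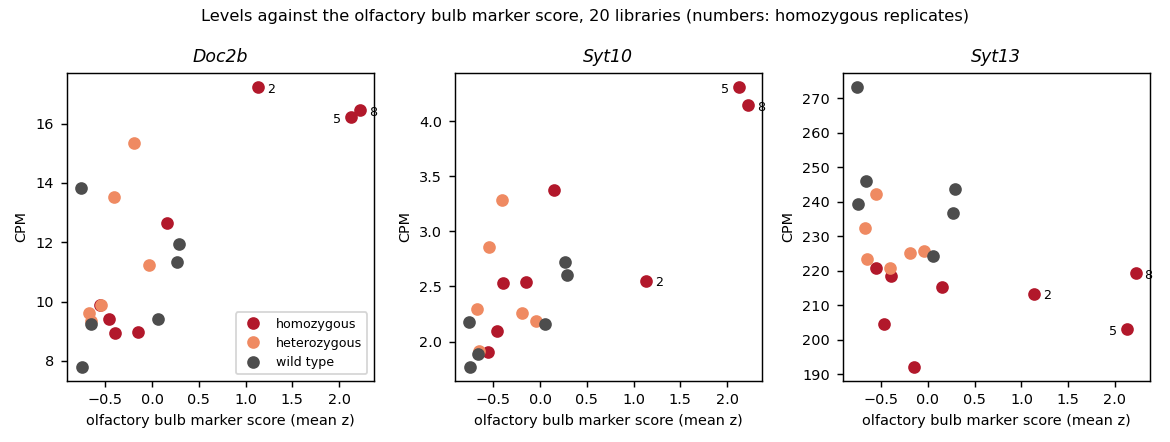
CPM of Doc2b, Syt10 and Syt13 (vertical axes, not from 0) against the olfactory bulb marker score (horizontal axis, mean z of log2 CPM) in 20 libraries, coloured by genotype. Homozygous replicates 2, 5 and 8, marked by number, have scores of 1.13 or more; Doc2b is highest in these 3 libraries, whereas Syt13 in them stays within the range of the other homozygotes.

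Syt1, the main sensor of fast synchronous release, was the sensor of highest level and had a log2 change of 0.01 in homozygotes (95% interval -0.06 to 0.09). Its library values ran from 1822 to 2105 CPM in homozygotes, from 1809.7 to 2181 CPM in heterozygotes and from 1901 to 2064 CPM in wild type. Syt7, a slower sensor of asynchronous release, was at -0.04 (-0.11 to 0.02), and Syt11 and Syt4, which bind calcium weakly or not at all, were at -0.00 (-0.06 to 0.05) and -0.01 (-0.10 to 0.09). Doc2a, the partner of Doc2b, was at -0.03 (-0.13 to 0.06) and shares 1103 exon bases with Ino80e on the opposite strand. Syt3 (log2 change -0.01), Syt5 (-0.04), Syt12 (-0.07) and Syt17 (0.04) were not called, nor was Syt6 (0.10), whose interval of -0.09 to 0.30 leaves the most room among them.

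None of the 10 genes of the SNARE cycle was called, and 8 of their 10 homozygous estimates were below 0 (median log2 change -0.04). Among all genes tested 8252 of 16690 homozygous estimates were below 0. At 100 CPM or more 1386 of 2212 were, with a median of -0.02. Cplx3 encodes a complexin, a clamp and activator of the assembled SNARE complex, and is known in cortex as a marker of subplate neurons. Its lowest, median and highest levels were 13.2, 15.6 and 17.9 CPM in homozygotes, 17.3, 17.8 and 19.97 CPM in heterozygotes, and 16.1, 17.9 and 21.1 CPM in wild type. In homozygotes 5 of 8 libraries lay below the lowest wild-type library and 6 of 8 below the lowest heterozygous library, and the ranges overlapped. The log2 change was -0.22 (SE 0.066, edgeR adjusted p = 0.0964). DESeq2 called the gene (adjusted p = 0.0446).

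Cplx2, the abundant complexin of excitatory neurons, stood at 1253, 1310.3 and 1367 CPM in homozygotes, 1324, 1423 and 1488 CPM in heterozygotes, and 1315, 1395 and 1502 CPM in wild type. Of the homozygous libraries 5 of 8 lay below every wild-type library, and the top of the homozygous range reached into the others. The log2 change was -0.10 (SE 0.033, edgeR adjusted p = 0.141). Snap25 stood at 3473, 3722 and 3812 CPM in homozygotes, 3575, 3679 and 3872 CPM in heterozygotes, and 3724, 3896 and 3972 CPM in wild type. Of the homozygous libraries 4 of 8 lay below the wild-type range, as did 3 of 6 heterozygous libraries. Its log2 change was -0.07 in homozygotes (95% interval -0.13 to -0.02, edgeR adjusted p = 0.19). How common such partial shifts of libraries are among all genes was not worked out, for these or other members.

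Vamp2, in contrast, had almost the same median in all genotypes. Its lowest, median and highest levels were 1067, 1132 and 1209 CPM in homozygotes, 1097, 1118 and 1179 CPM in heterozygotes, and 1108, 1131 and 1181 CPM in wild type. The homozygous range enclosed the wild-type range, and the log2 change was 0.00 (95% interval -0.06 to 0.06). Stx1a, the plasma membrane partner of Snap25, had a log2 change of -0.05 (-0.11 to 0.02). Nsf, the ATPase that takes SNARE complexes apart, was at 0.02 (-0.06 to 0.09). Its adaptors Napa and Napb were at -0.06 (-0.12 to -0.01) and 0.02 (-0.07 to 0.10), and 5 of 8 homozygous libraries lay below the wild-type range of Napa. The SNAREs of other membrane traffic, Vamp3 and Vamp4, were at -0.04 and -0.03.

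None of the 10 vesicle proteins was called (median log2 change 0.01, with 6 estimates above 0 and 4 below). Sv2a encodes a vesicle glycoprotein that is the target of the antiepileptic levetiracetam. Its levels were 414, 428 and 456 CPM in homozygotes, 419, 446 and 473 CPM in heterozygotes, and 432, 451 and 469.8 CPM in wild type. Rab3a, a small GTPase that tethers vesicles at the active zone, had 501, 532 and 556 CPM in homozygotes, 517, 537 and 556 CPM in heterozygotes, and 543, 553 and 561 CPM in wild type. For each gene 5 of 8 homozygous libraries lay below the lowest wild-type library, and the ranges overlapped. Their log2 changes were -0.06 (95% interval -0.13 to 0.00) and -0.05 (-0.11 to 0.01), with edgeR adjusted p = 0.332 for Sv2a and 0.375 for Rab3a. The other Rab3 genes, Rab3b and Rab3c, were at 0.07 (-0.01 to 0.15) and 0.01 (-0.11 to 0.12).

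The synapsins tether vesicles in a reserve cluster. Syn1 had a log2 change of 0.00 (-0.09 to 0.08), Syn2 of 0.06 (-0.02 to 0.14) and Syn3, the lowest of the family, of 0.11 (-0.04 to 0.27). Syn3 was at 18.9, 18.2 and 19.1 CPM in homozygous replicates 6, 7 and 8 and at 17.3 CPM or below in every other library, and it shares 1733 exon bases with Timp3 on the opposite strand. Syp, which encodes synaptophysin, was at -0.02 (-0.07 to 0.04). Sv2b and Sv2c, the relatives of Sv2a, were at 0.01 (-0.10 to 0.12) and 0.03 (-0.17 to 0.23).

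The vesicular glutamate transporters were not called. Slc17a7 (VGLUT1) is the transporter of cortical excitatory neurons, and its lowest, median and highest levels were 1296, 1426 and 1493 CPM in homozygotes, 1347, 1399 and 1436 CPM in heterozygotes, and 1393, 1403 and 1453 CPM in wild type. The homozygous range enclosed that of wild type, and the log2 change was 0.00 (95% interval -0.07 to 0.06). Slc17a6 (VGLUT2) is used mainly by thalamic and other subcortical inputs. It stood at 15.6, 17.05 and 18.8 CPM in homozygotes, 13.3, 16.8 and 19.6 CPM in heterozygotes, and 14.5, 16.6 and 18.003 CPM in wild type. The groups overlapped, with 3 of 8 homozygous libraries above the wild-type range, and the log2 change was 0.09 (95% interval -0.06 to 0.25, edgeR adjusted p = 0.586).

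Of the 8 active zone genes, Rims3 fell in homozygotes and 7 did not pass the test. Rims3 encodes a short RIM protein that holds only the last C2 domain of the family, and spans chromosome 4 from 120854816 to 120896579 on the plus strand. Its lowest, median and highest levels were 289, 308 and 329 CPM in homozygotes, 309.6, 325 and 334 CPM in heterozygotes, and 318, 334 and 355 CPM in wild type. In homozygotes 6 of 8 libraries lay below the lowest wild-type library, and replicates 4 and 8 reached into the wild-type range. Rims3 fell by 0.13 log2 units (SE 0.032, edgeR adjusted p = 0.0359). The call ended in 7 of 20 fits that left out 1 library, namely wild-type replicates 1, 5 and 6 and homozygous replicates 1, 3, 5 and 6, where the change was -0.14 to -0.12. Without the libraries of high olfactory bulb score the estimate was again -0.13 (edgeR adjusted p = 0.0949). The part of the parvalbumin markers, of which 3 of 12 were called as lower in homozygotes, in the values of Rims3 and Syt13 was not tested.

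Rims1, the long RIM scaffold that recruits calcium channels and primes vesicles, stood at 312, 326 and 344 CPM in homozygotes, 324, 339 and 354 CPM in heterozygotes, and 328, 338 and 359 CPM in wild type. Here 5 of 8 homozygous libraries lay below the wild-type range and none above it. Its log2 change was -0.06 (95% interval -0.12 to -0.00, edgeR adjusted p = 0.279), and that of Rims2 was 0.00 (-0.06 to 0.07). The giant scaffolds differed in spread. Bsn (Bassoon) was at 0.04 (-0.05 to 0.12), while Pclo (Piccolo) was at 0.13 (-0.01 to 0.27) with library values of 334 to 478 CPM in homozygotes, 346 to 399 CPM in heterozygotes and 342 to 405 CPM in wild type. Erc2, which binds RIM and Bassoon, was at 0.04 (-0.05 to 0.14). The priming factors Unc13b and Unc13c were at 0.00 (-0.06 to 0.07) and 0.02 (-0.11 to 0.15).

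The 4 genes of vesicle retrieval were not called. Amph encodes amphiphysin, which brings dynamin to the necks of budding vesicles, and stood at 205, 233 and 236 CPM in homozygotes, 207, 216 and 235 CPM in heterozygotes, and 211, 222 and 226 CPM in wild type. Synj1 encodes the phosphatase that lets clathrin coats come off, and stood at 357, 414 and 438 CPM in homozygotes, 367, 388 and 432 CPM in heterozygotes, and 379, 399.8 and 409.8 CPM in wild type. For each gene 6 of 8 homozygous libraries lay above the highest wild-type library, and replicate 2 lay below the lowest. The log2 changes were 0.05 (95% interval -0.02 to 0.12, edgeR adjusted p = 0.49) and 0.05 (-0.04 to 0.13, edgeR adjusted p = 0.614). Snap91, the clathrin adaptor AP180, was at 0.03 (-0.05 to 0.10), and Dnm1, the neuronal dynamin that cuts vesicles free, was at -0.03 (-0.11 to 0.06).

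Heterozygotes showed no called difference from wild type in these genes: 0 of 48 passed the edgeR test, where 0% of all genes did, and DESeq2 and limma voom also called 0 of the 48. At an unadjusted p under 0.05 there were 2 members against 3.19% of all genes, Syt13 with a log2 change of -0.10 and Snap25 with -0.06. No member had heterozygous and wild-type ranges that did not overlap (0 of 48; among all genes 0.0899% lay wholly higher and 0.108% wholly lower). The estimates were small throughout, with a median of -0.02, 15 above 0 and 33 below. Among all genes tested 8139 of 16690 were below 0, and at 100 CPM or more 27 of 30 members and 1494 of 2212 genes were. The 95% interval lay within 0.2 of 0 for 41 of the 48 genes. This comparison shares its wild-type libraries with the homozygous one, so the estimates of the 2 are not independent. For Rims3 the heterozygous estimate was -0.05 (-0.12 to 0.02) and for Syt9 0.12 (-0.05 to 0.29).

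Between homozygotes and heterozygotes 0 of 48 genes passed the edgeR test, where 0.108% of all genes did, and DESeq2 and limma voom called 0 as well. The unadjusted p was under 0.05 for 7 members, 2 higher and 5 lower in homozygotes, against 11.0% of all genes (789 higher and 1049 lower). At an average of 100 CPM or more, 1 member was higher and 4 were lower. Of all 2212 genes at that level, 86 were higher and 216 lower. Ranges that did not overlap were found for 0 of 48 members, and for 0.0899% (higher) and 0.198% (lower) of all genes. The smallest p-values belonged to the complexins: Cplx3 was at -0.23 with an edgeR adjusted p of 0.235, and Cplx2 at -0.11 with 0.265. Over 0, 1 and 2 copies of the allele, the trend was called for Syt13, Rims3 and Syt9, 3 of 48 genes against 1.83% of all genes (0.779% rising and 1.05% falling). Per allele, Syt13 fell by 0.11 log2 units (edgeR adjusted p = 0.00335), Rims3 fell by 0.07 (edgeR adjusted p = 0.0285) and Syt9 rose by 0.16 (edgeR adjusted p = 0.0285). The trend uses the same libraries as the comparison of homozygotes with wild type and does not test it independently.

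Release genes varied little between libraries of the same genotype. The median within-genotype SD of log2 CPM was 0.075 over the 48 genes and 0.102 over all genes tested, and at a mean of at least 100 CPM it was 0.063 over 30 members and 0.065 over 2212 genes. Summed over the 48 genes, levels averaged 22793 ± 776 CPM in the 8 homozygous, 22605 ± 539 CPM in the 6 heterozygous and 23121 ± 322 CPM in the 6 wild-type libraries (SD). Homozygous replicate 2 stood lowest, with a sum of 21147 CPM, a median deviation of -0.10 from the wild-type mean on the log2 scale and 11 of 48 genes above that mean. The same library had ependymal, choroid plexus, meningeal and astrocyte scores of 1.35, 1.68, 1.59 and 1.39, and the part of these in its release genes was not tested. Homozygous replicate 8 had 33 of 48 genes above the wild-type mean, wild-type replicate 1 had 35 of 48, and homozygous replicate 8 had the lowest myelin score, -2.07.

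**Figure D4:**
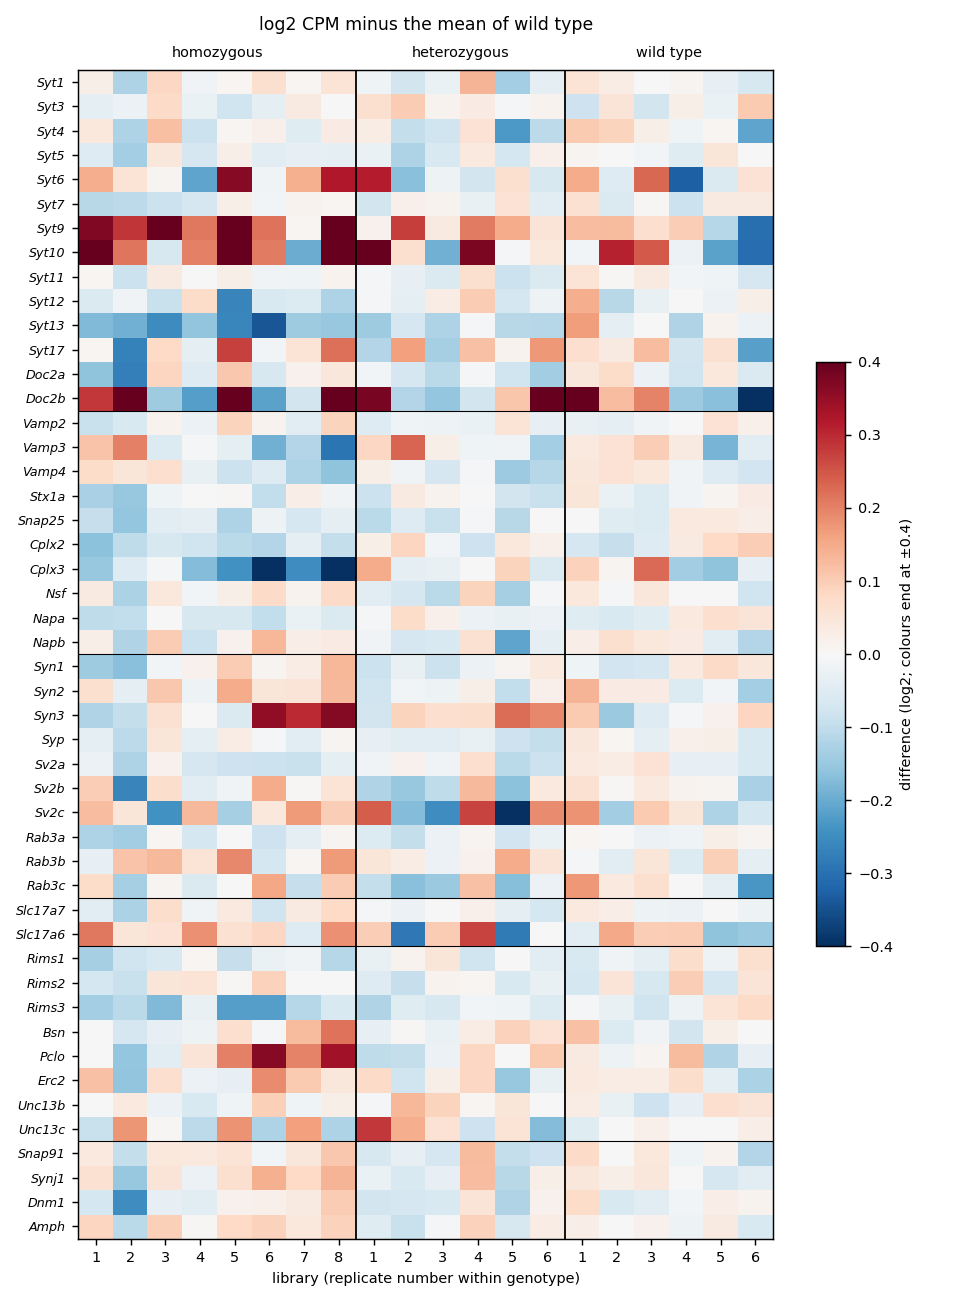
Log2 CPM minus the wild-type mean for each of the 48 genes (down the page, grouped by role) in each library (across, by genotype and replicate number); colours end at 0.4 on each side. Homozygous replicate 2 is below 0 in most genes, and Syt13 is below 0 in all 8 homozygous libraries. Doc2b and Syt10 hold the values farthest from 0, and Syt9, Cplx3 and Sv2c also pass 0.4 in places.

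Gene length was a feature that the choice of members did not use. Of the 16 members whose gene spans at least 100 kb, 15 had a homozygous estimate above 0, against 9 of the 32 shorter members, with median log2 changes of 0.02 and -0.02. Among all genes tested, 1479 of 2358 genes of at least 100 kb had an estimate above 0, and 6825 of 14073 shorter genes, with medians of 0.02 and 0.00. Spearman's rho between gene length and the homozygous change was 0.52 over the 48 members and 0.13 over 16431 genes with a length. For the heterozygous change it was 0.17 and 0.00. For homozygotes against heterozygotes, which leaves out the wild-type libraries, it was 0.35 and 0.13. These values describe genes measured in the same libraries and are not tests. The long members include Rims1, the exception below 0, and Syt9, and the short ones include Syt13, Rims3 and the complexins.

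**Figure D5:**
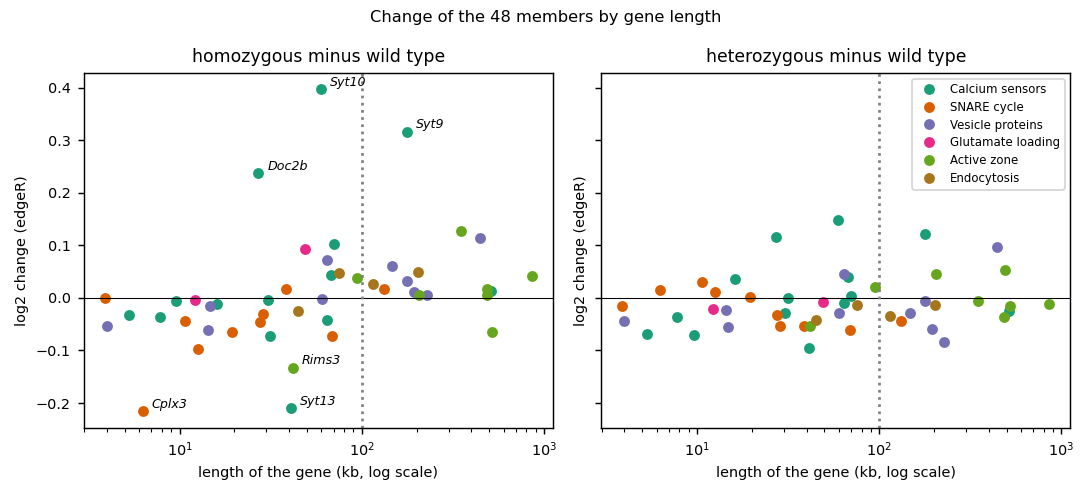
Log2 change (vertical axis, edgeR) against the length of the gene (horizontal axis, kb, log scale) for the 48 genes, coloured by role, in homozygotes minus wild type (left) and heterozygotes minus wild type (right); the dotted line is at 100 kb. On the left 15 of 16 genes to the right of the line are above 0, and Cplx3, Syt13 and Rims3 are the lowest points.

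Because TDP-43 binds UG repeats, the spliced transcripts of the members were searched on their own strand for GT repeated at least 6 times (12 bases) in GENCODE M21 protein-coding transcripts. Such a run was found in 6 of the 48 genes (12.5%) and in 7.33% of 16431 genes tested that have a GENCODE entry. Any of the 16431 without a protein-coding transcript could not hold a run but stays in that share. The shares are therefore not like for like, and no excess among the members is read from them. The members also have longer exon sequence, with a median of 5.32 kb against 4.18 kb. All 6 runs lie in a 3' UTR: Rab3c holds 21 repeats, Syt7 17, Bsn 14, Vamp2 8, Sv2a 7 and Rims3 6. Of the 3 called genes, Rims3 is the one with a run, and Syt13 and Syt9 have none of this length in these transcripts. The runs of the called gene and of 3 genes that were not called are shown here in transcript direction, with the repeat in capitals and the bases beside it in lower case (GRCm38).
Rims3, chr4:120891683-120891702, plus strand: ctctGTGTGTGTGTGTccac
Sv2a, chr3:96194548-96194569, plus strand: gcatGTGTGTGTGTGTGTacca
Vamp2, chr11:69090762-69090785, plus strand: atccGTGTGTGTGTGTGTGTccgt
Bsn, chr9:108096424-108096453, minus strand: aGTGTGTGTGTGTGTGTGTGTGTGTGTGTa
The run of Rims3 is the shortest of the 6, and the genes with longer runs had homozygous changes of 0.01 (Rab3c), -0.04 (Syt7), 0.04 (Bsn), 0.00 (Vamp2) and -0.06 (Sv2a). Introns were not searched. A run of letters is a description of the sequence and not evidence of binding.

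Other genes of the same pathway were followed as 3 lists. Of 50 further release genes, 1 was called in homozygotes against wild type, and 0 of 26 further endocytosis genes and 0 of 16 subunits of the vesicle proton pump were, with the same 1.56% of all genes as background. Their median log2 changes were -0.01, -0.02 and -0.02. The called gene was Vti1a, a SNARE of the Golgi and endosomes that also occurs on vesicles: its lowest, median and highest levels were 54.2, 55.9 and 58.1 CPM in homozygotes, 55.8, 57.4 and 61.1 CPM in heterozygotes, and 56.7, 60.8 and 65.7 CPM in wild type. The groups overlapped, and Vti1a fell by 0.13 log2 units (SE 0.030, edgeR adjusted p = 0.032). The call ended with only the 2 genotypes compared in the fit, without the 3 libraries of high olfactory bulb score, with surrogate variables or either set of tissue scores added, and when wild-type replicate 1, 4 or 5 or homozygous replicate 5, 6 or 8 was left out. The trend over alleles was called for 2 of the 50 release genes, both falling, against 1.83% of all genes tested (1.05% falling). Vti1a is one of these 2 release genes (edgeR adjusted p = 0.0285). Unc13a, the main Munc13 of cortical synapses and a known splicing target of TDP-43 in human neurons, was at -0.01 (-0.10 to 0.07).

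The fast-spiking relatives left out of the set, Syt2, Vamp1 and Cplx1, are given for comparison. Syt2 stood at 49.9, 59.9 and 62.9 CPM in homozygotes, 65.2, 70.0 and 72.1 CPM in heterozygotes, and 65.4, 70.0 and 79.1 CPM in wild type. Vamp1 stood at 160.4, 175 and 193 CPM in homozygotes, 194, 203 and 212 CPM in heterozygotes, and 197, 212 and 224 CPM in wild type. The homozygous ranges of both genes lay wholly below those of wild type, as in 0.515% of all genes tested. Both were called as lower than wild type (edgeR adjusted p = 0.00503 for Syt2 and 0.000395 for Vamp1). Their homozygous ranges also lay wholly below those of heterozygotes, as in 0.198% of all genes. Both were called there too (edgeR adjusted p = 0.0499 for Syt2 and 0.0244 for Vamp1), where 0.108% of all genes were. In Cplx1 the groups overlapped, with 693, 758 and 789 CPM in homozygotes, 768, 799 and 834 CPM in heterozygotes, and 761, 805 and 899.6 CPM in wild type. Its homozygous log2 change was -0.11 against wild type (edgeR adjusted p = 0.118) and -0.08 against heterozygotes (edgeR adjusted p = 0.413). Whether these changes differ from those of Syt1, Vamp2 and Cplx2 was not tested.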

How the data were processed

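Raw read counts per gene were used as the authors deposited them, in 1 table of 25965 rows and 20 libraries. The stranded mRNA libraries, per the labels' protocols, were read against GRCm38; the submitters' processing notes name HISAT2 2.0.5 and Trim Galore 0.4.3. No source used here names the program, annotation or strand setting of the counting.

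The test was edgeR 4.0.16, run in R 4.3.3 (TMM scaling, filterByExpr, robust quasi-likelihood test), all 20 libraries in 1 fit by genotype without a replicate block, and p-values were adjusted over the 16690 genes tested (threshold 0.05). CPM use TMM factors; log2 CPM add a prior count of 2. Fold intervals are 95%. Library totals ran from 61282647 to 111440766. Coordinates are those of the deposited table. Exon lengths, overlaps and transcript sequences came from GENCODE M21, matched for 96.4% of identifiers. The fit was also run on simulated counts with known changes and without differences of tissue makeup, and the outcome is not given here.

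The members, role groups, pathway and marker lists were chosen with earlier results of these data known. Values by library are given for members called in any comparison, the 2 of smallest p in each role, the 2 of largest spread and the 3 of highest level per kb; of the pathway lists, called genes are named, except 1 gene called in the trend that is not reported here. Unc13a and further values were named after they were seen. Alternatives were DESeq2 1.42.0, its size factors, other filters, a replicate block, fits of only the 2 genotypes compared, 3 surrogate variables (sva 3.50.0), tissue scores as covariates, libraries left out by score or in turn, limma 3.58.1 voom, and the longest transcript as length. Leaving out 3 libraries by olfactory bulb score was chosen after the data were seen.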

Additional observations from a re-analysis of the deposited data

Results flagged for a closer look

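Each genotype of each member was checked for a library that stands apart from the rest of its group, 144 groups in all, and 7 met Dixon's 95% limit; chance gives about 1 in 20 groups. Homozygous replicate 2 was low in 3 of them, with Syt11 at 703 CPM (next 736 CPM), Nsf at 866 CPM (next 939 CPM) and Amph at 205 CPM (next 221 CPM). Among heterozygotes, Vamp2 was high in replicate 5 at 1179 CPM (next 1123 CPM) and Snap91 high in replicate 4 at 364 CPM (next 326 CPM). In wild type, Sv2b was low in replicate 6 at 539.8 CPM (next 594 CPM) and Unc13c low in replicate 1 at 22.3 CPM (next 23.0 CPM), in a group of narrow range. None of these genes was called.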

How the results depend on the processing

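The call of Syt13 in homozygotes against wild type held in 31 of 32 alternatives and in each of 20 fits that left out 1 library; with 3 surrogate variables it did not (log2 change -0.18, adjusted p = 0.187), and its change ran from -0.23 to -0.18. Of the 48 genes, 3 were called in homozygotes against wild type, and 1 to 3 when 1 library was left out. Only Syt13 was called (1 gene) with only the 2 genotypes compared in the fit, with 3 tissue scores (ependymal, olfactory, meningeal) as covariates and without the 3 libraries of high olfactory bulb score, and 0 were called with 3 surrogate variables. DESeq2 called 4, Cplx3 being added, and striatal and thalamic scores as covariates gave 3, with Cplx3 in place of Syt9. Without the libraries of ependymal score over 0.5, 2 were called, Syt13 and Rims3. The trend called 3, and 1 to 3 with 1 library left out (1 without wild-type replicates 5 or 6 or homozygous replicate 5); it called 1 with the 3 surrogate variables (Syn3) and 1, Syt13, with the 3 tissue scores and without the olfactory libraries. Heterozygotes against wild type and homozygotes against heterozygotes gave 0 in every alternative.

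Of the further pathway genes 1 was called, 0 to 4 with 1 library left out. The count was 2 with DESeq2 size factors, with the filter of 1 CPM and without the ependymal libraries, 4 with DESeq2, 6 with striatal and thalamic scores, and 0 with only the 2 genotypes compared, with surrogate variables, with the 3 tissue scores and without the olfactory libraries; the cause was not tested. The replicate block left 3 members called and gave 4 pathway genes and 387 of all genes, against 261. The replicate numbers are not said to pair libraries: same-numbered libraries correlated at -0.10 to 0.14 over 18 pairs, and 2 of 18 libraries correlated best with their own number. All genes called in homozygotes against wild type numbered 634 with DESeq2, 165 with the 3 tissue scores, 79 without the olfactory libraries, 428 with striatal and thalamic scores and 19 with surrogate variables. Signs of uncalled genes near 0 turned in some alternatives, for Vamp2 in 14 and Slc17a7 in 10 of 32, for Doc2b in 4 and for Slc17a6 and Syt10 in 1 each. With the longest transcript as length, 37 genes in place of 34 reached 10 CPM per kb. Counting limits the least abundant members most, such as Syt10 at 1.77 to 4.31 CPM.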
